A study of Bos taurus with 12 samples.

Results

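MBD-seq peaks on bovine chromosomes 6, 9 and 12 were described, and compared with those on the other 26 autosomes, in methylated DNA of tender and tough Angus beef. A peak was a member when its chromosome was 6, 9 or 12 and it lay neither in the first nor in the last 3000000 bp of the chromosome, the last being counted from the highest peak end over all lists. Of 254474 peaks called in 12 single libraries, 20953 were members and 177369 lay on the other autosomes without their ends. Of 371966 peaks in 6 lists called on merged replicates, 33453 were members. The remaining sequence was 113.456 Mb on chromosome 6, 99.6914 Mb on chromosome 9 and 85.1462 Mb on chromosome 12, together 298.293 Mb against 2039.62 Mb on the other autosomes. The rule uses the position of a peak and none of its measured values.

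MBD-seq captures sheared genomic DNA with a methyl-CpG binding domain, a protein part that holds double-stranded DNA carrying methylated CpG dinucleotides, and a peak marks a place where captured reads pile up over their surroundings. In mammals most CpGs are methylated, but CpGs are scarce outside CpG islands and are denser in gene-rich DNA, so capture follows CpG density as well as methylation. Fragments with few methylated CpGs bind weakly and fragments with many bind strongly, and serial elution with buffers of rising salt separates them.

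The DNA came from longissimus muscle of contemporaneous Angus steers kept on one diet and slaughtered at about 12 months of age. Tender and tough beef came from animals with the lowest and the highest shear force of the herd, and 2 animals of each were sequenced. Serial elution of each capture separated DNA of high, medium and low methylation, giving the conditions HTE and HTO (high methylated DNA of tender and tough beef), MTE and MTO (medium) and LTE and LTO (low), each with 2 libraries. The sources disagree on which salt concentration belongs to HTE and HTO, so eluates are named here by methylation level alone. There was no untreated or input library in the peak calling, the 2 animals per beef limit every comparison of tender with tough, and muscle tissue holds other cell types whose DNA cannot be told apart from that of muscle fibres.

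The label of these chromosomes as gene-poor was checked against the RefSeq table of the assembly ARS-UCD2.0, whose coordinates differ from those of the peaks (bosTau8) and were used for nothing else. It lists 560 protein-coding genes on chromosome 6, 471 on chromosome 9 and 355 on chromosome 12, which makes 4.75, 4.51 and 4.07 genes per Mb. Chromosome 12 ranked the lowest of the 29 autosomes, chromosome 9 ranked 4 and chromosome 6 ranked 5. Together the 3 chromosomes held 4.48 genes per Mb, against 8.67 on the other autosomes.

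Depth after duplicate removal was 3677473 to 7981292 tags per library. LTE_1 stood apart, with 9944 peaks in all against 17487 to 29418 in the other low libraries, and its values are given by name where they matter. Peak lists hold calls above a threshold, so an absent peak is not an absence of methylation.

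Peaks were sparser on chromosomes 6, 9 and 12 than on the other autosomes in each of the 12 libraries. In the high eluate the members numbered 3.17 and 3.38 peaks per Mb in HTE and 2.87 and 3.21 in HTO, against 3.72 and 4.24 and against 3.49 and 4.01 on the other autosomes. In the medium eluate there were 8.75 and 9.31 in MTE and 6.32 and 6.66 in MTO, against 11.7 and 12.3 and against 8.20 and 8.53. In the low eluate there were 2.97 and 5.52 in LTE and 9.33 and 8.76 in LTO, against 3.55 and 6.32 and against 10.4 and 10.5. The 3 chromosomes thus fell below the others within every library, whichever beef or eluate it came from.

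**Figure D1:**
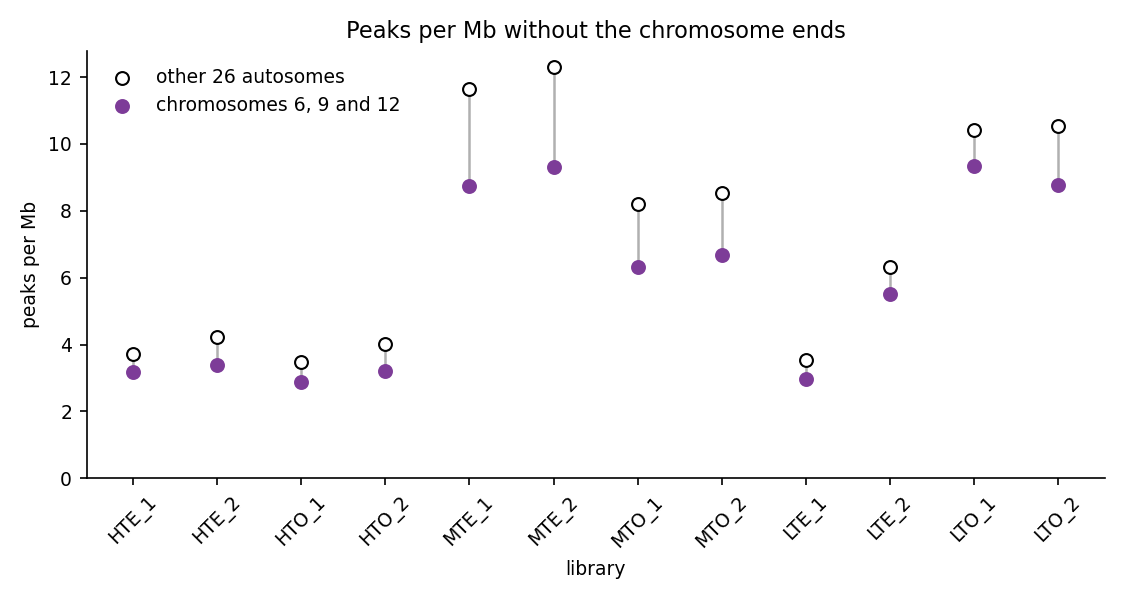
Peaks per Mb (vertical axis) in each of the 12 libraries (horizontal axis), with filled points for chromosomes 6, 9 and 12 and open points for the other 26 autosomes, both without the chromosome ends. Each filled point lies below the open point of its library, and the gap is widest in the medium libraries, where 6.32 to 9.31 peaks per Mb stand against 8.20 to 12.3.

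As a ratio within each library, peak density on the members relative to the other autosomes was −0.29 ± 0.04 on the log2 scale (SD, n = 4) in the high, −0.39 ± 0.03 in the medium and −0.22 ± 0.05 in the low eluate. These ratios are 18.3%, 23.5% and 14.1% fewer peaks per Mb. The density was lower in 4 of 4 libraries of each eluate, and the two-sided exact sign-flip test gave p = 0.125 in each, the smallest that 4 libraries allow (0.234 after Benjamini-Hochberg adjustment over 15 tests). The bases under peaks per Mb differed by −0.24 ± 0.03, −0.38 ± 0.04 and −0.22 ± 0.05 in the same order, again in 4 of 4 libraries each. With the 3 densest windows of 1000000 bp taken from each of the 29 autosomes, which is a larger part of a short chromosome, the density ratios were −0.13, −0.34 and −0.09, each of the same sign in 4 of 4 libraries; this was added after the data had been seen.

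The shortfall was deeper in the medium eluate than in the others. The medium ratios lay between −0.41 and −0.36, below the high ratios of −0.33 to −0.23 and the low ratios of −0.26 to −0.16, with no overlap. Both differences gave p = 0.0286 in a two-sided exact permutation test of 4 against 4 libraries, the smallest it can give, and 0.0857 after adjustment over 15 contrasts, so that neither passed 0.05. High and low ratios overlapped (p = 0.114, exact permutation test). The members held 10.4 to 11.1% of the interior autosomal peaks in the high libraries, 9.89 to 10.3% in the medium and 10.9 to 11.6% in the low libraries.

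The merged lists, called with deeper reads and without replicates, gave the same direction. The log2 ratios of tender and tough beef were −0.30 and −0.32 in the high, −0.32 and −0.34 in the medium and −0.17 and −0.17 in the low eluate. In these lists the high and medium values lay close together and the low values nearer to 0, so that the ratio within a list was not the same in single and merged lists.

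The 3 chromosomes did not behave alike, and the difference was greatest in the high eluate. Relative to the other autosomes, chromosome 6 stood at 0.06 ± 0.09 on the log2 scale in the high, −0.26 ± 0.07 in the medium and −0.08 ± 0.10 in the low eluate. Chromosome 9 stood at −0.32 ± 0.06, −0.43 ± 0.05 and −0.24 ± 0.07. Chromosome 12 stood at −0.90 ± 0.11, −0.52 ± 0.08 and −0.41 ± 0.20. Of the 3, chromosome 12, with the fewest genes per Mb, thus had the fewest peaks for its length in the high eluate. Among all autosomes chromosome 2 was about as sparse there, with a mean of 2.04 peaks per Mb against 2.08 on chromosome 12. Chromosome 6 was near the other autosomes in the high eluate and below them in the medium eluate.

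Counted from the sparsest of the 29 autosomes, chromosome 12 ranked 1 to 3 in the 4 high libraries, 4 to 5 in the medium and 2 to 7 in the low libraries. Chromosome 9 ranked 7 to 10, 4 to 7 and 6 to 9, and chromosome 6 ranked 19 to 22, 7 to 10 and 11 to 21. The peaks per Mb on chromosome 12 were 1.87 and 2.23 in HTE and 1.81 and 2.40 in HTO. On chromosome 6 they were 4.20 and 4.31 in HTE and 3.66 and 3.91 in HTO, so that the 2 chromosomes did not overlap in this eluate. Chromosome 6 was 0.32 higher in the high than in the medium eluate on the log2 scale, whereas chromosome 12 differed by −0.38, being sparser in the high eluate. Each of these contrasts had no overlap between the 4 and 4 libraries (p = 0.0286, exact permutation test) and an adjusted p of 0.0514 over the 9 contrasts of single chromosomes, which were added after the data had been seen.

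**Figure D2:**
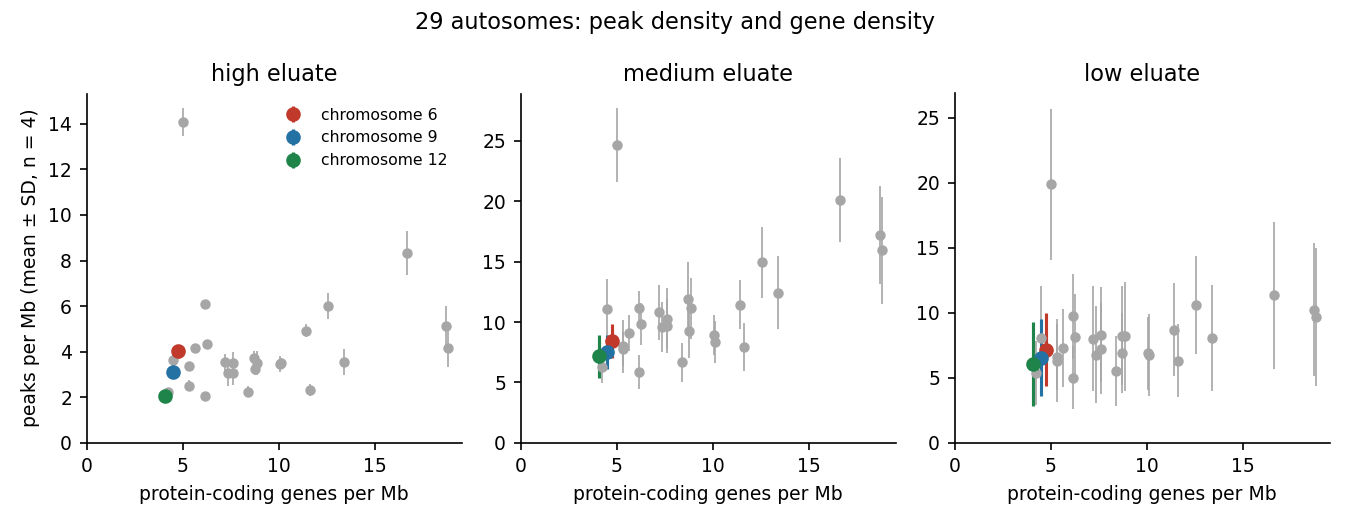
Peaks per Mb in the bosTau8 peak lists (vertical axis, mean ± SD of 4 libraries) against protein-coding genes per Mb in ARS-UCD2.0 (horizontal axis) for the 29 autosomes, 1 panel per eluate, with chromosomes 6, 9 and 12 coloured and the others grey. The 3 chromosomes lie at the left, at 4.07 to 4.75 genes per Mb, and in the high eluate they spread from 2.08 peaks per Mb on chromosome 12 to 4.02 on chromosome 6.

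Across the 29 autosomes, which share libraries and depth, Spearman's rho between genes per Mb and peaks per Mb was 0.24 to 0.37 in the high libraries, 0.48 to 0.55 in the medium and 0.29 to 0.45 in the low libraries, given as a description. Chromosome 12 lay at the low end of both measures, and chromosome 9 was among the 10 autosomes with the fewest peaks per Mb in every library. Outside the members, chromosome 20, with 4.25 genes per Mb, ranked 2 to 5 from the sparsest in the high, 2 in the medium and 2 to 4 in the low libraries. Not every autosome with few genes was sparse in peaks. Chromosome 6 ranked 19 to 22 from the sparsest in the high libraries. Chromosome 24, with 4.49 genes per Mb, ranked 14 to 19 in the high, 19 to 21 in the medium and 15 to 20 in the low libraries. Chromosome 27, with 4.999 genes per Mb, ranked 29 in every library.

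Peak widths on the members were close to those elsewhere. Median widths were 263 to 285 bp in the high, 197 to 242 bp in the medium and 180 to 205 bp in the low libraries, against 268 to 286, 202 to 246 and 180 to 211 bp on the other autosomes. The log2 ratios of −0.01 ± 0.02, −0.03 ± 0.01 and −0.02 ± 0.02 gave sign-flip p-values of 0.375, 0.125 and 0.25 (exact, n = 4). The wide tail was heavier on the members: peaks of 1000 bp or more made up 3.49 to 4.66% of the member peaks in the high libraries, against 2.80 to 3.16% on the other autosomes, and the share was above that of the other autosomes in all 12 libraries. The lower limit of width was the fragment length set in peak calling, 146 to 203 bp by library, and 7.13 to 26.5% of the member peaks stood at it.

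Fold enrichment, the ratio of a summit to its local background, did not separate the members. Its median was 5.69 to 6.59 in the high, 6.55 to 7.03 in the medium and 5.95 to 6.41 in the low libraries, and the log2 ratios to the other autosomes were 0.01 ± 0.03, 0.00 ± 0.02 and 0.03 ± 0.04 (exact sign-flip p = 1.0, 1.0 and 0.5, n = 4).

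Pileup, the number of extended tags over the summit, was higher on the members in the high eluate. The median pileup was 98 and 28.5 in HTE and 94 and 24 in HTO, against 60 and 24 and against 55 and 20 on the other autosomes. The ratio was 0.50 ± 0.28 on the log2 scale, higher in 4 of 4 libraries (exact sign-flip p = 0.125, n = 4). In the medium and low eluates the medians were 10 to 17 and the ratios 0.06 ± 0.07 and 0.11 ± 0.14. Without chromosome 6 the ratio in the high eluate turned to −0.86.

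These medians fell between separate classes of peaks. One class had a median pileup of 9 to 14 by library and another stood above 100, under the ceiling that 1 kept tag per position sets, since a summit can hold at most as many tags as both strands of 1 fragment length have positions (292 to 406 by library). The highest pileup on the members was 357. In the high libraries only 3.51 to 5.65% of the member peaks lay between 30 and 99, whereas in LTE_1 30.9% did, so that a threshold of 100 divides the upper class in that library. Peaks were therefore also counted by class, at 100 and, as a check, at 50 and 150, after the data had been seen.

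Peaks with a pileup of 100 or more were unevenly divided among the 3 chromosomes. In the high eluate chromosome 6 had 2.46 and 2.27 such peaks per Mb in HTE and 2.19 and 2.12 in HTO. Chromosome 9 had 1.55, 1.51, 1.45 and 1.34 in the same order, and chromosome 12 had 0.423, 0.364, 0.388 and 0.364. The other autosomes had 1.50 to 1.65. Chromosome 6 lay above the other autosomes and chromosome 12 below them in every high library, and the 3 chromosomes did not overlap with each other.

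The order was the same in the medium eluate, with 2.59 to 2.80 per Mb on chromosome 6, 1.68 to 1.90 on chromosome 9 and 0.435 to 0.458 on chromosome 12, against 1.99 to 2.13 on the other autosomes. In the low eluate chromosome 6 had 0.635 in LTE_1 and 1.52 to 2.45 in the other 3 libraries, chromosome 9 had 0.211 and 0.752 to 1.46, and chromosome 12 had 0.0470 and 0.235 to 0.399, against 0.741 and 1.29 to 1.78 on the other autosomes. Chromosome 6 thus lay below the other autosomes in LTE_1 and above them in the other 3 low libraries. By this class chromosome 12 ranked 1 to 2 from the sparsest of the 29 autosomes in the high and medium libraries, chromosome 9 ranked 17 to 19 and chromosome 6 ranked 22 to 23. Chromosome 14 shared the ranks 1 to 2 in these libraries. Its means were 0.416 per Mb in the high and 0.461 in the medium eluate, against 0.385 and 0.449 on chromosome 12.

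Peaks with a pileup under 100 did not divide the 3 chromosomes in this way. Those of the high eluate numbered 1.46 to 2.04 per Mb on chromosome 6, 1.41 to 1.79 on chromosome 9 and 1.42 to 2.03 on chromosome 12, all overlapping, against 1.95 to 2.59 on the other autosomes. Relative to the other autosomes the members stood at −0.43 ± 0.03 on the log2 scale in the high, −0.43 ± 0.02 in the medium and −0.15 ± 0.08 in the low eluate. The upper class stood at −0.12 ± 0.05, −0.24 ± 0.02 and −0.57 ± 0.43, the last ranging from −1.19 in LTE_1 to −0.27. With the threshold at 50 the low value was −0.33 ± 0.06, and with the threshold at 150 the high value turned to 0.11.

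**Figure D3:**
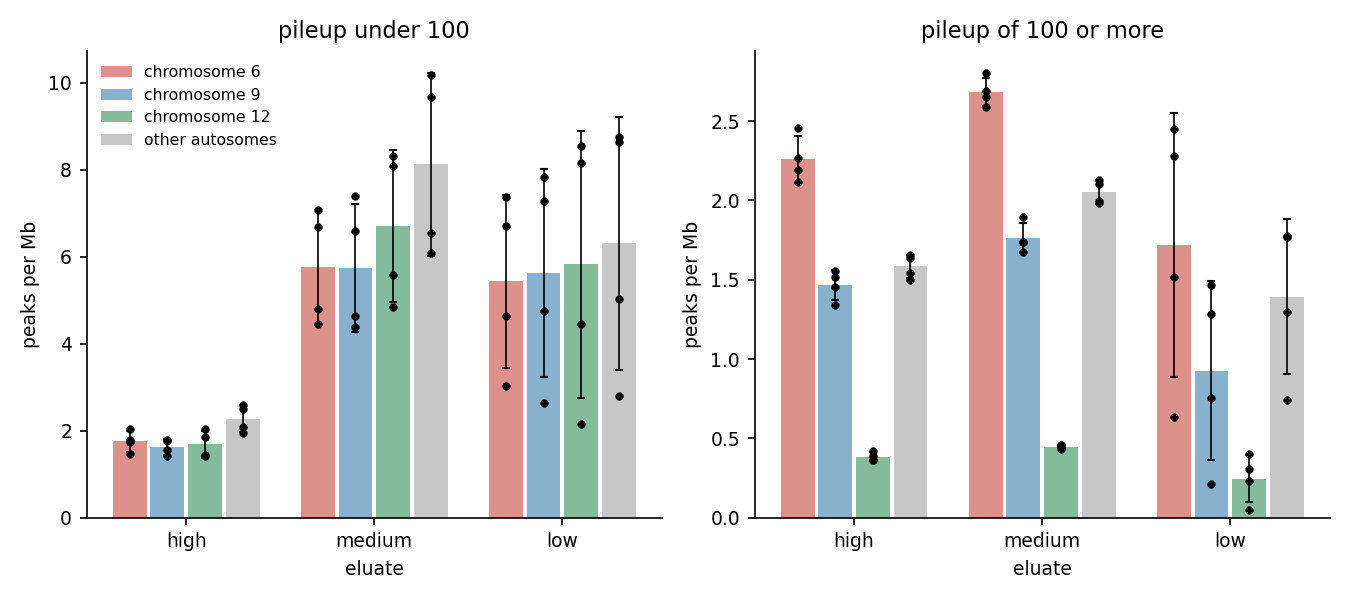
Peaks per Mb (vertical axis) with a pileup under 100 (left) and of 100 or more (right) by eluate (horizontal axis), for chromosomes 6, 9 and 12 and the other autosomes. Bars are means of 4 libraries, whiskers their SD and points the libraries, and in the right panel chromosome 6 stands above 2.1 and chromosome 12 below 0.43 in each high library.

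Between eluates, the lower class on the members was less depleted in the low eluate than in the high (0.27 on the log2 scale) or the medium (0.28), with an adjusted p of 0.0343 each (exact permutation test, 6 contrasts, 4 against 4 libraries). Without MTE_2 the adjusted p of medium and low was 0.0571 (exact). High and medium did not pass in this class (adjusted exact permutation p = 0.914), with ratios of −0.44 to −0.38 and −0.45 to −0.40. This depended on the threshold: high minus medium was 0.075 under 50 (adjusted exact permutation p = 0.0343) and −0.072 under 150 (adjusted exact p = 0.0286), without overlap in either. In the upper class each pair of eluates had an adjusted exact permutation p of 0.0343, but the difference of high and medium was 0.02 with the threshold at 50 (adjusted p = 0.286, exact) and the difference of medium and low fell from 0.33 to 0.12 without LTE_1 and that of high and low from 0.45 to 0.24. The adjusted p rose to 0.103 (exact) for high and low without any 1 high library, to 0.206 (exact) for medium and low without any 1 medium library, and to 0.0857 (exact) for high and medium without MTE_2. Across the 29 autosomes, Spearman's rho of genes per Mb with the lower class was 0.52 to 0.55 in the high and 0.54 to 0.58 in the medium libraries. It was 0.31 to 0.49 in the low libraries. With the upper class it was −0.08 to −0.03 over all eluates.

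Along chromosomes 6 and 9, peaks of the lower class lay towards the distal end in the high and medium eluates. With each chromosome divided into 4 equal parts, the last part of chromosome 6 held 4.27 ± 0.74 such peaks per Mb in the high eluate (SD, n = 4), against 1.16 ± 0.15, 0.758 ± 0.14 and 0.846 ± 0.06 in the parts before it. This was 4.59-fold the mean of those parts, and the fold was 3.03 on chromosome 9, 1.11 on chromosome 12 and 2.03 on the other autosomes. The folds in the medium eluate were 2.94, 2.999, 1.32 and 2.08. In the low eluate they were 1.01, 1.81, 1.24 and 1.49. The last part was not always the densest. On chromosome 6 in the low eluate the first part held 8.64 ± 1.31 per Mb and the last 5.99 ± 3.21. On chromosome 12 in the high eluate the first and second parts held 2.03 and 2.15 and the last 1.83. The folds were also taken without the 3 densest windows of each autosome, which on chromosome 6 all lie in the last part. On chromosomes 6, 9 and 12 and the other autosomes they were then 1.95, 2.60, 1.15 and 1.87 in the high eluate. They were 1.48, 2.50, 1.25 and 1.86 in the medium and 0.83, 1.67, 1.09 and 1.39 in the low. The low value of chromosome 6 ranged from 0.45 to 1.09 by library. Chromosome 9 was thus more lopsided than the other autosomes in all 3 eluates with and without those windows, and chromosome 12 less so. On chromosome 6 the fold was above theirs in the high and medium eluates with the windows. Without them it was near theirs in the high and below it in the medium.

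The upper class followed another course. It numbered, in the high eluate, 6.08 ± 0.36 per Mb in the first part of chromosome 6, next to the centromere, and 0.264 ± 0.02 in the third part. On chromosome 9 it was 0.291 ± 0.02 in the first part and 2.44 ± 0.19 in the second. On chromosome 12 the first part held 0 such peaks in each high library, and the second part held 0.693 ± 0.08. The other autosomes, pooled, had 1.05 to 2.25 per Mb in the 4 parts. Single windows held many of the peaks in these parts. With peaks of any pileup counted in the high eluate, chr6:17000001-18000000, in the first part, held 63 and 58 in HTE and 56 and 53 in HTO. In the second parts, chr9:45000001-46000000 held 42 to 53 by library and chr12:39000001-40000000 held 13 to 17. The upper class was not counted without such windows.

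**Figure D4:**
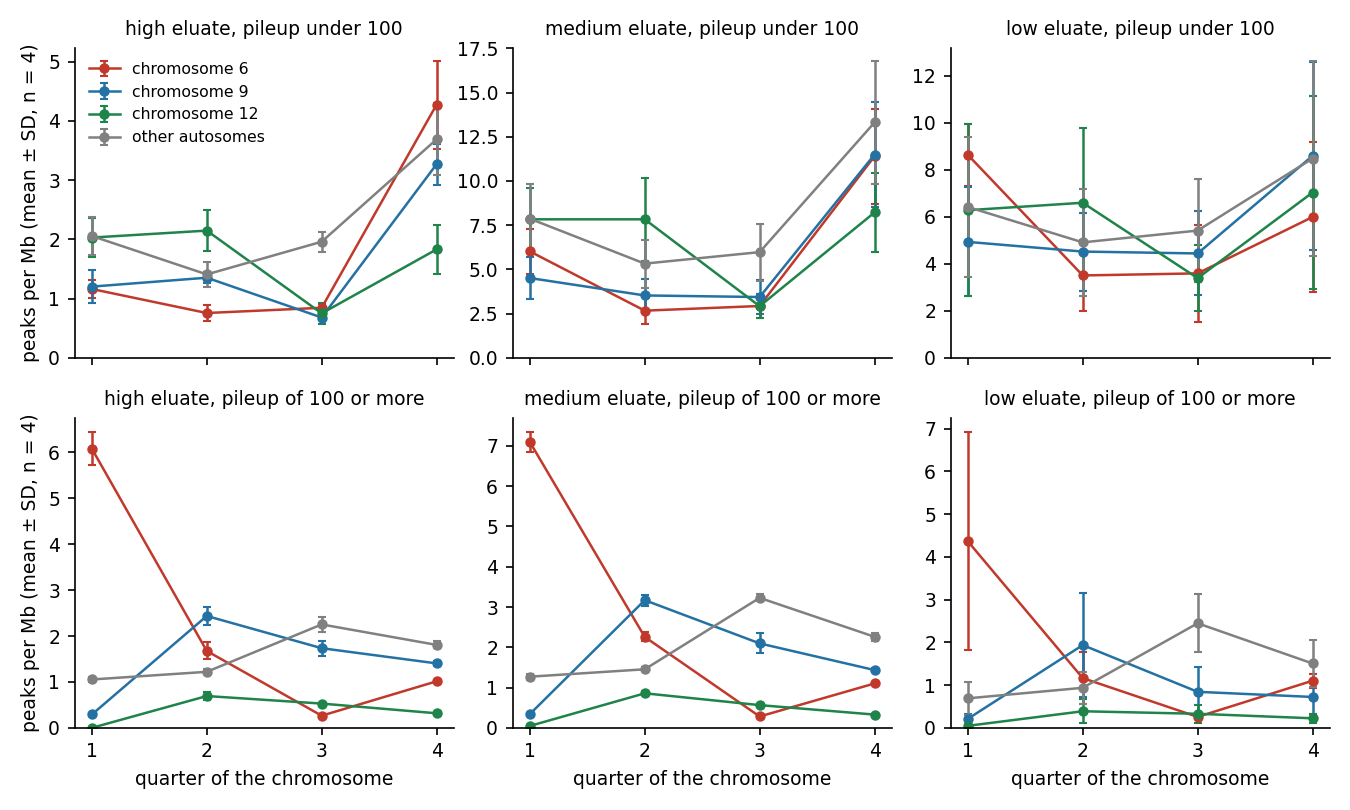
Peaks per Mb (vertical axis, mean ± SD of 4 libraries) in 4 equal parts of each chromosome, numbered from the centromere side (horizontal axis), for peaks with a pileup under 100 (top) and of 100 or more (bottom), 1 column per eluate. In the top row chromosome 6 climbs to 4.27 in the last part of the high eluate, and in the bottom row it starts at 6.08 in the first part and falls to 0.264 in the third.

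With all peaks counted, the last part held relatively fewer peaks on the members pooled than on the other autosomes. The log2 ratio of the last part to the others was 0.15 lower than elsewhere in the high, 0.08 lower in the medium and 0.22 lower in the low eluate, in 4 of 4 libraries each (exact sign-flip p = 0.125, the smallest possible). The 3 chromosomes differed in this. The ratio was lower than on the other autosomes in all 12 libraries on chromosome 12 and in 11 of 12 on chromosome 6, and higher in all 12 on chromosome 9, where it was 0.80 to 0.90 in the high, 1.04 to 1.34 in the medium and 0.62 to 0.91 in the low eluate, against 0.63 to 0.81, 0.84 to 0.93 and 0.41 to 0.62.

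Joined over the 12 libraries wherever they shared 1 bp, the member peaks made 6302 regions, 21.1 per Mb, against 53574 regions and 26.3 per Mb on the other autosomes. In windows of 1000000 bp the members had a median of 14 regions and the other autosomes 18, and 27.6% of the member windows held 10 regions or fewer, against 19.02%. The 10% of windows with the most regions held 42.7% of the regions on chromosome 6, 31.8% on chromosome 9 and 26.2% on chromosome 12, against 30.9% on the other autosomes. Regions on chromosome 6 were the most gathered of the 3.

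Counted by regions, the densest window of chromosome 6 was chr6:108000001-109000000, with 158 regions. Its neighbours on both sides, chr6:107000001-108000000 and chr6:109000001-110000000, held 135 and 138. None of these regions had a peak in all 12 libraries, and none of the peaks in the 3 windows had a pileup of 100 or more in any library. In the high eluate the 3 windows held 80 and 93 peaks in tender and 58 and 69 in tough beef, in the medium 189 and 221 and then 145 and 149, and in the low 13 and 38 and then 54 and 79. Within the windows there were 7.21 ± 1.13 times (SD, n = 4) as many peaks per Mb as on the rest of chromosome 6 in the high, 8.25 ± 0.53 in the medium and 2.06 ± 0.76 in the low eluate. Counted by peaks, chr6:17000001-18000000, with 81 regions, held more than chr6:108000001-109000000 in each high and low library. In the high eluate it held 63, 58, 56 and 53 peaks, against 30, 32, 21 and 26. In the medium it held fewer in MTE (71 and 74 against 77 and 80) and more in MTO (67 and 68 against 50 and 61).

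These 3 Mb held 16.3% ± 2.1 of the peaks of chromosome 6 in the high eluate and 18.3% ± 0.94 in the medium, and 37.4% ± 3.5 and 27.1% ± 1.6 of those with a pileup under 100. In the low eluate they held 5.28% ± 1.8 of the peaks. Each of the 29 autosomes was also left without its 3 densest windows by regions. Chromosome 6 then stood at 0.24 ± 0.12, −0.25 ± 0.10 and 0.11 ± 0.18 relative to the other autosomes in the high, medium and low eluates. The window chr6:17000001-18000000, rich in peaks, was kept in these values. The stretch was singled out after its values had been seen.

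On chromosome 9 the densest window, chr9:45000001-46000000, held 94 regions, 15 of which had a peak in all 12 libraries. Its peaks numbered 53 and 50 in tender and 47 and 42 in tough beef in the high eluate, 71 and 74 against 67 and 61 in the medium, and 22 and 39 against 58 and 58 in the low. Unlike the stretch of chromosome 6, 53.2% of its regions were seen in all 3 eluates, against 5.70% in the densest window of chromosome 6. The densest window of chromosome 12, chr12:34000001-35000000, held 69 regions, 1 of them in all 12 libraries and 13.0% in all 3 eluates. The longest stretches without a peak in any library were 982566 bp at chr6:53291150-54273715, 607907 bp at chr9:27992022-28599928 and 691097 bp at chr12:72434005-73125101, and the one on chromosome 6 ranked 3 among the longest of the 29 autosomes.

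Regions with a peak in all 12 libraries numbered 287 on the members, 156 on chromosome 6, 100 on chromosome 9 and 31 on chromosome 12. Per Mb these were 1.37, 1.00 and 0.364, against 1.21 on the other autosomes, and chromosome 12 was the sparsest of the 29 autosomes in such regions. Of the 287, 245 (85.4%) had a median pileup of 100 or more, against 1.04% of the 2986 regions seen in a single library. Chromosome 12 had as many regions per Mb as chromosome 6 (21.6 and 21.4), so it was the recurrent, high-pileup regions that were few there.

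The regions of this kind with the highest lowest fold enrichment were, on chromosome 6, chr6:26333977-26334581, on chromosome 9, chr9:25242499-25242910, and on chromosome 12, chr12:16898425-16899585. At chr6:26333977-26334581 the fold enrichment in tender and then in tough beef was 26.5 and 24.4 and 21.5 and 23.2 in the high eluate, 29.4 and 28.7 and 29.1 and 28.9 in the medium, and 27.04 and 28.5 and 27.5 and 28.2 in the low. At chr9:25242499-25242910 it was 23.6 and 24.3, 24.99 and 21.4, 28.2 and 31.6, 32.9 and 29.3, 22.7 and 27.1, and 28.0 and 30.5 in the same order. At chr12:16898425-16899585 it was 19.7 and 17.7, 16.2 and 17.3, 22.0 and 21.5, 22.5 and 21.2, 19.03 and 18.5, and 18.2 and 20.3. All 3 regions were called in every condition. In the high eluate tender beef lay above tough beef on chromosomes 6 and 12, and in the low eluate tough beef lay above tender beef on chromosome 9, while the other values overlapped within their eluate. Over all 2760 autosomal regions with a peak in every library, tender and tough beef did not overlap in 39.7% in the high, 57.4% in the medium and 35.7% in the low eluate, so such a separation is common.

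The other regions of this rank had fold enrichments of at least 11.2 and 10.4 on chromosome 6, 20.4 and 17.5 on chromosome 9, and 14.6 and 12.3 on chromosome 12 in their lowest library. At chr6:5357482-5358116 the pileup was 26 to 52 in the 4 high libraries and 130 to 151 in the 4 low libraries, with no overlap. At chr9:100198274-100199028 it was 175 to 199 in the high and 80 to 138 in the low libraries. Pileup is not divided by depth, and the low libraries had more tags left (5770411 to 7981292) than the high (3677473 to 4843388), so the former difference lies along depth and the latter against it.

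The widest regions were 2088 bp at chr6:56204183-56206270, 2505 bp at chr9:85210980-85213484 and 1857 bp at chr12:39476088-39477944, all called in the 12 libraries. Their fold enrichments were moderate, 6.98 to 7.98, 5.44 to 6.55 and 7.22 to 9.03, while the pileup of the one on chromosome 6 reached 353.

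By eluate, 38.2% of the member regions were seen in the low eluate alone, 20.5% in the medium alone, 20.8% in medium and low, 14.0% in all 3 eluates and 5.59% in high and medium. On the other autosomes these shares were 34.4%, 24.1%, 20.8%, 14.4% and 5.54%. As a share of their regions, the members thus had more seen in the low eluate alone and fewer in the medium alone. The share seen in the low alone was 35.6% on chromosome 6, 39.0% on chromosome 9 and 40.7% on chromosome 12. Regions in all 3 eluates made up 16.7% on chromosome 6, 14.3% on chromosome 9 and 10.2% on chromosome 12.

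Taking the libraries of 1 beef and replicate number as 1 animal, which the sources do not state, the share seen in the medium alone was 3.70 ± 0.87 percentage points lower on the members (SD, n = 4), lower in 4 of 4 animals. The share seen in the low alone was 2.44 ± 1.41 points higher and that in medium and low 0.74 ± 0.59 points higher, each in 4 of 4. The exact sign-flip p was 0.125 for each, the smallest that 4 animals allow. The share with a peak in the high eluate differed by 0.53 ± 1.76 points, higher in 2 and lower in 2 animals (p = 0.75, exact sign-flip test).

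Regions with a peak in all 4 libraries of 1 eluate and in none of the other 8 were few. There were 8 for the high eluate (0.127% of the member regions, where the share over all autosomes, members included, was 0.0301%), 31 for the medium (0.492%, against 0.762%) and 23 for the low eluate (0.365%, against 0.256%). Of the 8, 7 lay on chromosome 6. The region of this kind with the highest lowest fold enrichment was chr6:109499127-109499493 for the high eluate, within the dense stretch, with 8.89 and 9.59 in HTE and 10.7 and 13.0 in HTO. For the medium eluate it was chr9:96131676-96131949, with 12.2 and 13.7 in MTE and 13.1 and 8.56 in MTO. For the low eluate it was chr6:4626309-4626599, with 14.3 and 18.8 in LTE and 16.4 and 14.6 in LTO. In the region of the high eluate the values of tough beef lay above those of tender beef, and in the other 2 regions they overlapped.

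Tender and tough beef were compared within each eluate. On the members, the high eluate had 3.17 and 3.38 peaks per Mb in tender and 2.87 and 3.21 in tough beef, which overlapped (0.927-fold, p = 0.667, exact permutation test, 2 against 2). The medium eluate had 1.39-fold more in tender beef, and the low eluate 2.23-fold more in tough beef, both without overlap (exact permutation p = 0.33, the smallest that 2 against 2 allow). On the other autosomes the folds were 1.43 and 2.21, so the members followed the rest of the genome. The density on the members as a ratio to the other autosomes differed between tough and tender by −0.02 on the log2 scale in the high, 0.04 in the medium and 0.01 in the low eluate.

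The low difference lay along depth and LTE_1: tags left were 5770411 and 7165381 in LTE and 7981292 and 7212507 in LTO, and without LTE_1 the log2 difference was 0.71 in place of 1.16. LTE_2 and LTO_2, of nearly equal depth, had 5.52 and 8.76 peaks per Mb. The medium and high differences lay along depth too. Tags left were 6589423 and 6886676 in MTE and 6010993 and 5969045 in MTO. They were 4526538 and 4843388 in HTE and 3677473 and 3721723 in HTO. Per 1000000 tags left, the direction in the high eluate turned, with 0.6999 and 0.698 peaks per Mb in HTE and 0.779 and 0.862 in HTO, while the medium and low directions stayed. The part of depth in these differences was not tested.

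By chromosome, the difference between beefs was wider on chromosome 12 than on chromosome 6 in the medium and low eluates, which was not tested. Tender beef of the medium eluate had 1.32-fold more peaks per Mb on chromosome 6, 1.37-fold on chromosome 9 and 1.53-fold on chromosome 12. In the low eluate tough beef had 1.98-fold, 2.25-fold and 2.71-fold more. In the high eluate the libraries of chromosome 12 overlapped (1.87 and 2.23 against 1.81 and 2.40 peaks per Mb), and those of chromosomes 6 and 9 did not, with 1.12-fold and 1.07-fold more in tender beef.

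Regions called in both libraries of one beef and in neither of the other were counted within each eluate. In the high eluate 50 of 1317 member regions (3.80%, Wilson 95% interval 2.89 to 4.97%) were tender-specific, where the share over all autosomes was 3.33%, and 21 (1.59%, 1.05 to 2.43%) were tough-specific, against 1.68%. In the medium eluate 318 of 3907 (8.14%, 7.32 to 9.04%) were tender-specific, against 8.76%, and 87 (2.23%, 1.81 to 2.74%) were tough-specific, against 1.64%. In the low eluate 13 of 4683 (0.278%, 0.162 to 0.474%) were tender-specific, against 0.461%, and 468 (9.99%, 9.17 to 10.9%) were tough-specific, against 9.27%. The intervals cover counting error only. Most of these shares lay near those of all autosomes, and such a share is no result about the members. The tough-specific share of the medium eluate had an interval above the background. With the same number of peaks taken from each library of an eluate, the medium eluate had 129 tender-specific and 201 tough-specific member regions, the reverse of the order above, and the low eluate had 33 and 82, the same order at a smaller size. The shares over all autosomes at this setting are not given here, so these counts are no result about the members.

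**Figure D5:**
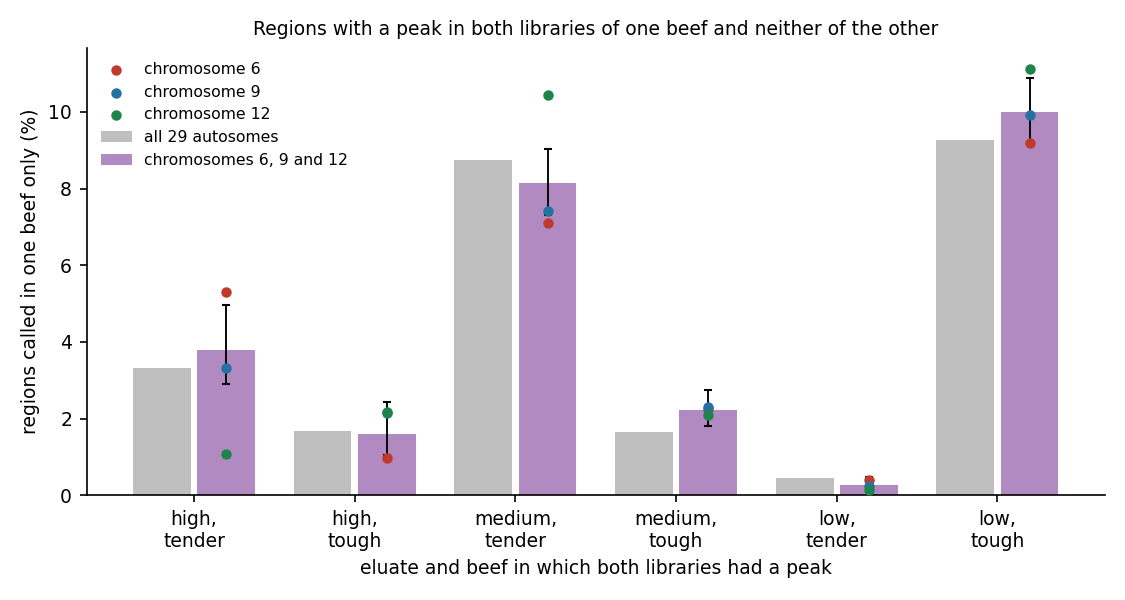
Share of regions (vertical axis, %) called in the 2 libraries of one beef and in neither of the other, by eluate and beef (horizontal axis), with grey bars for all 29 autosomes, purple bars with Wilson 95% intervals for chromosomes 6, 9 and 12 together and points for each of them. The purple bars follow the grey ones, from 0.278% in the low tender class to 9.99% in the low tough class.

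Of the 50 tender-specific regions of the high eluate, 33 lay on chromosome 6 (5.31% of its regions), 14 on chromosome 9 (3.33%) and 3 on chromosome 12 (1.09%). The shares ran the other way in the medium eluate, with 7.11%, 7.42% and 10.4%. Among the tough-specific regions of the low eluate the shares were 9.19%, 9.91% and 11.1%. These orders were not tested.

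Many regions specific to one beef in 1 eluate were called in another eluate, in the high and medium eluates about as often as regions at large. Of the member regions of the high eluate, this held for 48 of the 50 tender-specific (96.0%) and 20 of the 21 tough-specific (95.2%), against 96.1% of all 1317. In the medium eluate it held for 211 of the 318 tender-specific (66.4%) and 55 of the 87 tough-specific (63.2%), against 66.9% of all 3907. It held in the low eluate for 5 of the 13 tender-specific (38.5%) and 352 of the 468 tough-specific (75.2%), against 48.6% of all 4683. The tough-specific share of the low eluate stood above its eluate, and on all autosomes it was likewise 78.0% against 51.2%. Regions at large include those with a peak in a single library, whereas a specific region needs both libraries of its beef. The shares are therefore not of like regions, and neither are those of pileup below.

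A peak of the other beef in another eluate lay at 86.0% of the tender-specific and 76.2% of the tough-specific member regions of the high eluate, at 57.9% and 32.2% of those of the medium, and at 7.69% and 70.3% of those of the low eluate. On all autosomes these shares were 90.2%, 82.5%, 54.3%, 30%, 22.3% and 73.7% in the same order. The highest pileup among the libraries reached 100 or more in 21 of the 50 and 3 of the 21 member regions of the high eluate, where 35.8% of all member regions did. It did so in 6 of the 318 and 12 of the 87 of the medium eluate, against 14.0%, and in 1 of the 13 and 55 of the 468 of the low eluate, against 10.4%. On all autosomes 24.1% of the tender-specific and 8.49% of the tough-specific regions of the high eluate did, against 32.8% of all regions. The tender-specific regions of the high eluate thus stood above their eluate on the members (42.0%) and below it on all autosomes. On all autosomes the tough-specific share of the medium eluate was 13.6% against 13.0%. In the low eluate the shares there were 7.61% and 9.20% against 10.5%. Tender-specific regions of the medium eluate thus had a high pileup less often than its regions at large (1.89%), as on all autosomes (3.12% against 13.0%), which was not tested.

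The tough-specific region of the low eluate with the highest lowest fold enrichment, chr6:62581414-62581696, had 13.9 and 14.6 in LTO and no peak in LTE. It was nonetheless called in all 8 high and medium libraries, with 22.2 and 20.1 in tender and 21.1 and 22.1 in tough beef in the high eluate, and 18.5 and 20.6 against 23.0 and 20.2 in the medium. Tender and tough beef overlapped in fold enrichment in the high and in the medium eluate, so the region set the beefs apart in the low eluate alone.

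The corresponding tough-specific region of the medium eluate, chr9:24034257-24034692, had 9.85 and 9.27 in MTO, 8.21 and 8.74 in HTE, 10.1 and 9.30 in HTO, 5.97 and 7.35 in LTO, and no peak in MTE or LTE. The tender-specific region of the medium eluate, chr6:74232272-74232513, had 12.9 and 12.3 in MTE and no peak in any other library. The tender-specific region of the low eluate, chr9:64337256-64337450, likewise was called in LTE alone, with 7.44 and 7.12. Of these 4 regions, the last 2 were called in a single condition.

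Both regions named for the high eluate lay in the dense stretch of chromosome 6. The tender-specific one, chr6:107174193-107174487, had 11.2 and 8.50 in HTE, 7.51 and 8.12 in MTE and 6.74 in MTO_1. The tough-specific one, chr6:108466194-108466488, had 8.93 and 10.1 in HTO and 7.56 and 6.10 in MTO, and no peak in tender beef in any eluate.

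Replicates shared most of their peak bases on the members in the high eluate. The Jaccard index, the bases shared over the bases covered by either, was 0.686 in HTE and 0.662 in HTO, against 0.647 and 0.630 on the other autosomes. In the medium eluate it was 0.524 and 0.557, against 0.520 and 0.540, and in the low eluate 0.409 and 0.355, against 0.409 and 0.335. It was lower on chromosome 12 than on chromosomes 6 and 9 in each pair, at 0.584 and 0.516 in the high eluate, where tender and tough libraries shared 0.542 to 0.598 on that chromosome. Tender-tough pairs shared 0.646 to 0.679 on the members in the high eluate, which overlapped the values of the replicates. In the medium eluate they shared 0.487 to 0.499 and in the low 0.276 to 0.350, below both replicate pairs of the eluate. The other autosomes had the same order, with 0.473 to 0.482 in the medium and 0.282 to 0.329 in the low eluate.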

How the data were processed

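Peaks of 12 single libraries and of 6 merged conditions were used as deposited. Per the labels and headers, the authors used SOAPnuke for read cleaning and BWA (0.7.7 in the submitters' processing notes) for alignment to bosTau8, from which unique alignments entered MACS2 (2.1.1.20160309 for single, 2.1.0.20150731 for merged lists). Peaks had a q-value under 0.01, without control, at most 1 tag counted per position, and the local background spanned 10000 bp. The deposited pileup is a signal not divided by depth, the deposited fold enrichment is a ratio to local background, and the authors also gave the −log10 of p-value and q-value. Calling was done per library, so depth is part of the lists, and values were compared as ratios within a library.

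From these lists, peaks per Mb, covered bases, medians, joined regions (1 bp or more shared), windows and chromosome parts were computed in Python 3.11.15 (libraries scipy 1.17.1, pandas 2.3.3 and numpy 2.4.6). Tests were two-sided exact sign-flip tests over 4 libraries and exact permutation tests between groups, p-values being adjusted by Benjamini-Hochberg and called at 0.05. The labels make replicates separate libraries and the study's methods separate animals. The code was tested on simulated data with planted densities and planted specific regions. The chromosomes, lists and tests were chosen with earlier results of these data known. Regions named were those with the highest lowest fold enrichment of their kind, the densest window, the longest stretch without a peak and the widest region per chromosome. Alternatives were stricter thresholds, other ends, other reference chromosomes, equal peak numbers, other joining, merged lists, each library left out and replicates paired. No sequence, CpG content or gene was tied to a region, since no bosTau8 genome or annotation was used here.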

Additional observations from a re-analysis of the deposited data

Results flagged for a closer look

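The log2 ratio of the median fold enrichment on chromosomes 6, 9 and 12 to that on the other autosomes was 0.0652 in HTO_1, while the other 3 libraries of the high eluate lay between −0.01 and 0.00. HTO_1 was set apart as a sample far from the others of its eluate by Dixon's criterion. It was the 1 of 15 groups of 4 libraries so marked, and chance marks about 1 in 20.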

How the results depend on the processing

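The density shortfall kept its direction under all 54 alternatives over the 3 eluates, and the covered length under 50 of 51, turning to 0.01 in the high eluate with the median over chromosomes. Leaving out single libraries moved the density ratio between −0.31 and −0.28 (high), −0.40 and −0.38 (medium) and −0.24 and −0.20 (low). Without the 3 densest windows of each autosome, chosen after seeing the data, it was −0.13, −0.34 and −0.087. No test against the other autosomes could pass 0.05 with 4 libraries, so crossing the threshold says nothing here.

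Small ratios changed sign more often, and the cause was not tested. Width turned to 0.035 (high) and 0.032 (low) with fold enrichment of at least 3, to 0.032 (high) without chromosome 6, to 0.025 (low) without chromosome 12, and to 0.0061 (medium) and 0.034 (low) with the median over chromosomes. Pileup turned to −0.86, −0.063 and −0.16 in the 3 eluates without chromosome 6, to −0.048 (high) with no ends left out, to −0.058 (medium) in the merged lists, and in the low eluate to −0.13 at −log10 q of at least 5 and −0.22 with equal peak numbers. Fold enrichment turned, in the high eluate, to −0.018 without chromosome 27 among the others, −0.041 without chromosome 9, −0.16 without chromosome 12, −0.066 with the median over chromosomes and −0.0083 in the merged lists, and ranged from −0.0032 to 0.022 with single libraries left out. In the medium eluate it turned to −0.019 with no ends left out, −0.0048 with 5000000 bp left out, −0.0019 without chromosomes 18, 19 and 25, −0.013 without 27, −0.018 without chromosome 9, −0.069 without chromosome 12, −0.0041 with the median over chromosomes and −0.036 with equal peak numbers, and ranged from −0.0080 to 0.012 with single libraries left out.

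Between eluates, the differences in density and covered length of medium from high and low kept their direction throughout. High minus low turned for covered length to 0.0018 without chromosomes 18, 19 and 25 and 0.022 with no ends left out (−0.031 to 0.0025 with single libraries left out). For pileup, with no ends left out, high minus medium turned to −0.077, high minus low to −0.048 and medium minus low to 0.029, the last also to 0.16 at −log10 q of at least 5 and 0.48 with equal peak numbers (−0.086 to 0.0071 with single libraries left out). With single libraries left out, width, high minus low, ranged from −0.0029 to 0.011 and fold enrichment, high minus medium, from −0.0044 to 0.022.

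In the classes by pileup, added after seeing the data, the density at 150 or more in the high eluate was 0.11. The high minus medium difference was 0.024 for peaks of 50 or more, 0.075 under 50 and −0.072 under 150, and ranged from 0.10 to 0.14 (100 or more) and −0.012 to 0.013 (under 100) with single libraries left out. With single libraries left out, high minus low ranged from 0.24 to 0.55 and medium minus low from 0.12 to 0.43 (100 or more), and medium minus low from −0.31 to −0.26 (under 100). The adjusted exact permutation p rose above 0.05 for high minus low without any 1 of the 4 high libraries (0.103), for medium minus low without any 1 of the 4 medium libraries (0.206), both at 100 or more, and without MTE_2 for high minus medium at 100 or more (0.0857) and medium minus low under 100 (0.0571).

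Between beefs, the high difference turned to 0.23 per 1000000 tags left. As a ratio to the other autosomes the difference turned to −0.025 (medium) and −0.0056 (low) in the merged lists and, with single libraries left out, ranged from −0.072 to 0.025 (high) and −0.039 to 0.067 (low).

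Counts of beef-specific regions moved the most. At equal peak numbers the medium eluate had 129 tender-specific and 201 tough-specific regions, the reverse order, and the low eluate 33 and 82. At −log10 q of at least 5 there were 13 tough-specific (high) and 8 tender-specific (low) regions, and with peaks up to 500 bp apart joined 57 tough-specific (medium). With 1 library left out a single library decides a beef, and counts ranged from 79 to 182 and 41 to 128 (tender, tough) in the high, 468 to 932 and 142 to 287 in the medium and 36 to 523 and 541 to 1764 in the low eluate. All these counts stand without the share over all autosomes at their setting, so they are no result about the members. The share of regions with a peak in the high eluate turned to −0.12 points with peaks joined, −2.22 with equal peak numbers, and ranged from −0.30 to 1.03 with 1 animal left out.

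Paired by beef and replicate number (replicate block), medium minus low density was −0.17 and high minus medium 0.096, each in the same direction in 4 of 4 pairs (exact sign-flip p = 0.125, the smallest possible), and no call changed. Deviations of replicates per autosome correlated between eluates from −0.27 to 0.73, so the numbers are not shown to pair the eluates. Depth limits which peaks could be called.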
